A study of Mus musculus with 9 samples.

Results

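The 10 core clock genes Arntl (also called Bmal1), Clock, Npas2, Per1, Per2, Per3, Cry1, Cry2, Nr1d1 and Dbp were followed in RNA of injured mouse tibialis anterior, a muscle of the shin. They were chosen by name, and each matched 1 of the 54532 Ensembl genes of the deposited count table. The C57BL/6J mice had a muscle injury by barium chloride (BaCl2), which destroys muscle fibres and sets off regeneration, followed by 3 injections. Young mice of 3 to 4 months received saline (young PBS), old mice of 24 to 26 months received saline (old PBS), and other old mice received recombinant meteorin-like protein (old rMETRNL), a secreted factor made by immune cells among others. The amount per injection was 0.1, in a unit that the sources give differently (µg or ng). Each group held 3 libraries. They were named here by group and the number in their labels, so that old PBS ran from 2 to 4. The labels describe a cell suspension 4 days after injury. The study's own text describes bulk RNA of whole muscle at 8 days, and a cell suspension at 4 days for a separate single-cell experiment. Which day applies to the libraries was not settled. Transcripts of mature fibres were abundant in every library, and the libraries are treated here as bulk muscle. The mice lived in a light-dark cycle, and the clock time at which muscles were taken was not given in the sources used here. Separate animals are not stated for each library, so the p-values measure the spread between these libraries.

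Most mammalian cells keep a daily clock that is a loop of transcription. Arntl pairs with Clock, or with the related Npas2, and the pair binds a short DNA letter pattern called the E-box and turns on Per, Cry, Nr1d1 and Dbp. The Per and Cry proteins then shut the pair down, Nr1d1 (REV-ERB alpha) represses Arntl, and Dbp is an output factor that binds a pattern called the D-box. In mouse tissues that include muscle, Arntl and Npas2 transcripts are high around the start of the light phase, when Dbp, Nr1d1 and Per3 are low, and the order is turned around towards the end of the light phase. A sample taken at 1 time thus carries a rough mark of its time in the ratio of these genes. Per1 stands somewhat apart in that glucocorticoid hormones and signals through cAMP also turn it on quickly.

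The DNA before the start of 3 members is printed because they hold the E-boxes and D-boxes found in the members' 300-base promoter windows, which reach from 250 bases before to 50 bases after a start. The sequences come from RefSeq on GRCm38.p6. Of the members, 9 of 10 were matched, with 13 windows in all, and Per2 was not among them. Each sequence runs 5′ to 3′ on the strand of its gene, ends before the first base of the transcript, and carries the found patterns in capitals.

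Per1, chr11:69098699-69098947, plus strand, holds an E-box and a reversed REV-ERB half-site: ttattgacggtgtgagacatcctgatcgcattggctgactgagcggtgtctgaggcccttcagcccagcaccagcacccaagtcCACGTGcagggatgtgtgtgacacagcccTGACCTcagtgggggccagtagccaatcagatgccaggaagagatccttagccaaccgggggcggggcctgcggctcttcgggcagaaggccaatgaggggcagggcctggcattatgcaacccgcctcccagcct
Cry1, chr10:85185065-85185304, minus strand, holds an E-box: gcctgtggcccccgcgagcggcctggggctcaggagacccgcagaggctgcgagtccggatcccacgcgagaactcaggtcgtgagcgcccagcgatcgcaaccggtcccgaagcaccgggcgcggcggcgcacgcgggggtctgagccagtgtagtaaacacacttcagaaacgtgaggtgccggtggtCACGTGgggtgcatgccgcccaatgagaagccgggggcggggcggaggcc
Per3, chr4:151044666-151044915, minus strand, holds a pair of D-boxes: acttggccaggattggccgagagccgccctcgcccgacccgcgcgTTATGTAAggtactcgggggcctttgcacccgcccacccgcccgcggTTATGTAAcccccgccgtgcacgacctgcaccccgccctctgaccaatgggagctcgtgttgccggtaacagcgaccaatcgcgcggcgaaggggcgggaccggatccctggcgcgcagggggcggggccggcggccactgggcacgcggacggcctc

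Both strands were searched for the E-box CACGTG, the D-box TTATGTAA or TTACGTAA, the half-site AGGTCA that REV-ERB receptors bind, and the cAMP response element TGACGTCA, none of which contains another. In Per1 the E-box began at position -166 from the start, and the half-site, read as TGACCT, at -137. In Cry1 the E-box began at -60, and in Per3 the D-boxes began at -205 and -158. Of all 32851 windows, 7.15% held the E-box, 1.06% the D-box, 16.3% the half-site and 1.79% the cAMP element. The half-site was also found in 1 window each of Clock and Arntl, and none of these patterns was found in the windows of Npas2, Cry2, Nr1d1 or Dbp. The cAMP element was in none of the 13 windows. A match is a match of letters in a short window only.

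Depth was 16238700 to 22522560 counts per library, so that 1 count was worth 0.0437 to 0.0673 CPM, the usual count relative to library size, here scaled by the TMM method of edgeR. All 10 members passed the filter on low counts in all comparisons. The mature fibre markers, which name the tissue, summed to 97551 to 169990 CPM. The old PBS libraries stood apart from one another. Markers of newly formed fibres, such as embryonic myosin Myh3, summed to 4648 CPM in old PBS 3 and 576.7 CPM in old PBS 4, against 1596 to 2198 CPM in the 6 other libraries outside old PBS. Old PBS libraries also held transcripts of brain and liver marker genes, and Mobp, Snap25, Apoa1 and Fgb had 0 counts in the 6 libraries of the other groups. Values with and without single old PBS libraries are therefore given where a result rests on them. In bulk muscle, fewer cells of a type and less RNA per cell cannot be told apart.

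Per length, the output genes were the most abundant members. Mean levels over the 9 libraries, in counts scaled by exon length and by library size (FPKM), were 29.1 for Dbp and 23.1 for Nr1d1. They were 7.88 for Per1, 7.31 for Cry2, 7.10 for Per3, 5.42 for Cry1, 3.44 for Per2 and 3.29 for Clock. Arntl was at 1.22 FPKM and Npas2 at 0.343 FPKM. The ranges of neighbours in this order were apart between Nr1d1 and Per1, between Clock and Arntl, and between Arntl and Npas2. Those of the other neighbours overlapped, although Dbp was above Nr1d1 in 9 of 9 libraries. Per1 was above Cry2 in 3 of 9 libraries, which were those of old PBS.

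**Figure D1:**
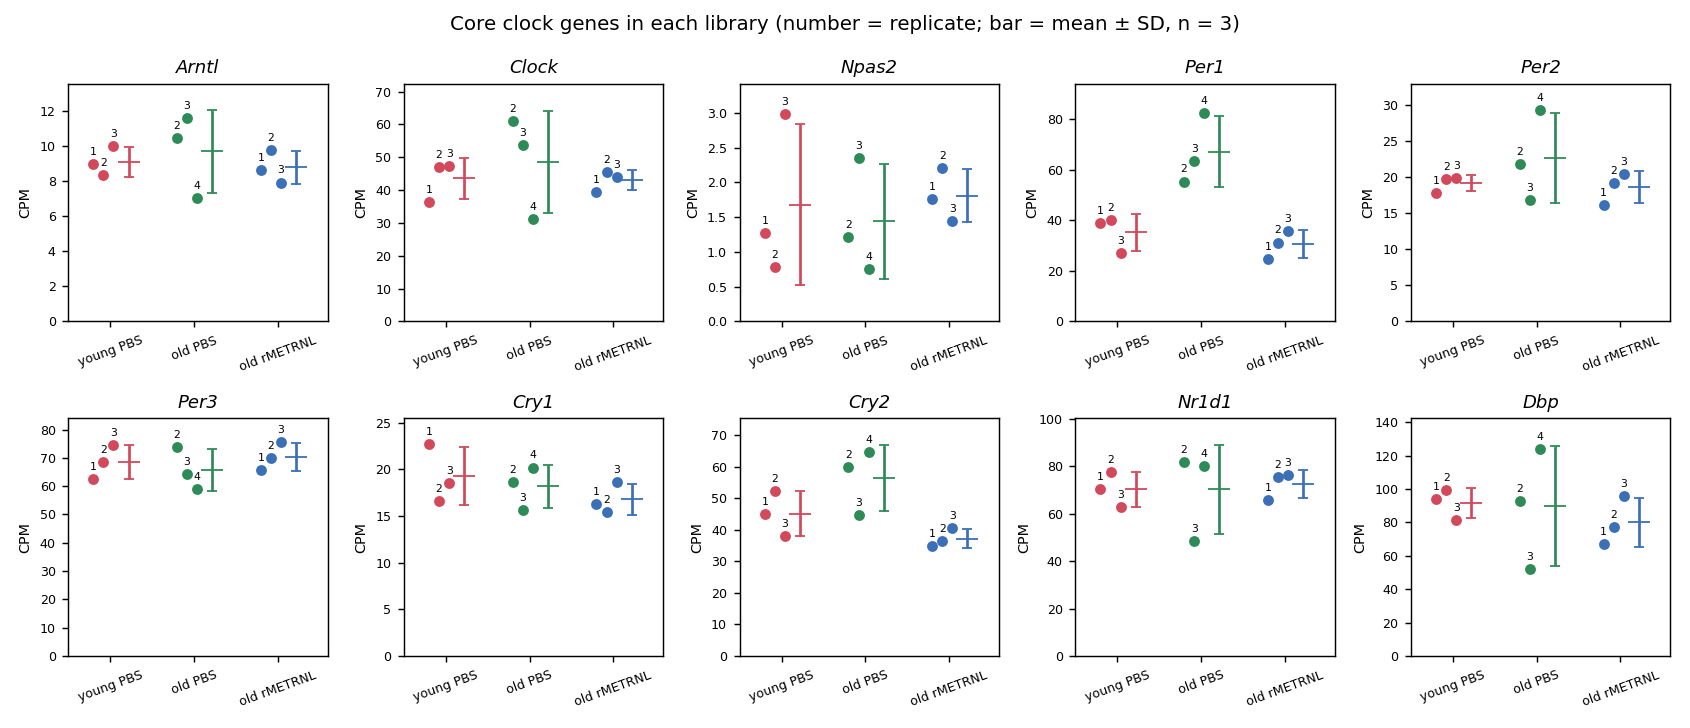
Level of each core clock gene in CPM (vertical axis, from 0) in the 3 groups, with 1 numbered point per library and the mean ± SD of 3 libraries beside them. Per1 is the gene whose 3 old PBS points (55.4 to 82.7 CPM) sit above every point of the other groups, while Dbp is spread most widely within old PBS, from 52.2 to 124.0 CPM.

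Levels of the activators overlapped in all groups. Arntl had 8.95, 8.32 and 9.98 CPM in young PBS 1 to 3, 10.4, 11.6 and 7.04 CPM in old PBS 2 to 4, and 8.62, 9.78 and 7.92 CPM in old rMETRNL 1 to 3. Both the highest and the lowest of these 9 values were old PBS libraries. The log2 fold change of Arntl was 0.10 (SE 0.23) in old PBS against young PBS and -0.15 (SE 0.23) in old rMETRNL against old PBS, with adjusted p of 0.994 and 0.882 in the quasi-likelihood test of edgeR, corrected by Benjamini and Hochberg over all genes. Clock, the partner of Arntl, had 36.3, 47.0 and 47.5 CPM in young PBS, 61.1, 53.6 and 31.2 CPM in old PBS, and 39.5, 45.6 and 44.1 CPM in old rMETRNL. Old PBS again held both extremes, and the log2 fold changes of Clock were 0.16 (SE 0.26) and -0.18 (SE 0.24). Npas2, which can replace Clock, was counted 12 to 54 times per library. It reached 2.99 CPM in young PBS 3 and 2.36 CPM in old PBS 3, and was lowest in old PBS 4 and young PBS 2 at 0.755 and 0.776 CPM. Its SE was 0.60 for old PBS against young PBS and 0.46 for old rMETRNL against old PBS on the log2 scale. Within groups its SD was 0.71 in log2 CPM, above that of 84.4% of genes within 0.5 log2 CPM of its level. With such spread and so few counts, a difference of Npas2 near the size of its SE could not be told from 0.

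Per1 was the member that set the old PBS group apart. It had 39.0, 40.2 and 27.0 CPM in young PBS 1 to 3, 55.4, 63.5 and 82.7 CPM in old PBS 2 to 4, and 24.7, 31.2 and 36.0 CPM in old rMETRNL 1 to 3. All old PBS libraries lay above all others, and the young PBS and old rMETRNL ranges overlapped. The mean was 35.4 ± 7.33 CPM in young PBS, 67.2 ± 14.0 in old PBS and 30.6 ± 5.66 in old rMETRNL (SD, n = 3). Per1 was 1.90-fold higher in old PBS than in young PBS, a log2 fold change of 0.92 (SE 0.22, edgeR adjusted p = 0.242), which missed the threshold of 0.05. DESeq2 gave 0.93 with an adjusted p of 0.0225, and edgeR without the filter on low counts an adjusted p of 0.0182, both past the threshold. In old rMETRNL it was at 0.455 of the old PBS level, a log2 fold change of -1.14 (SE 0.21, edgeR adjusted p = 0.0962). Here DESeq2 gave an adjusted p of 0.000554 and edgeR without the filter 5.14e-05. Old rMETRNL and young PBS differed by -0.21 (SE 0.17, edgeR adjusted p = 0.9996). These comparisons share the old PBS or the young PBS libraries and are not independent of each other.

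Few genes in all were called by edgeR, so the calls must be read against that background. Of the 15560 genes tested between old PBS and young PBS, 10 (0.0643%) passed, and 17 of 15682 (0.108%) passed between old rMETRNL and old PBS. DESeq2 called 1.41% and 1.84% of the genes it tested. Without the filter, edgeR called 1.23% and 2.55%. By unadjusted p, Per1 was in place 152 of 15560 for the first comparison and 67 of 15682 for the second. Groups with no overlap and the higher values in old PBS were seen in 5.26% of genes against young PBS, which held for 1 of 10 members. Against old rMETRNL the figure was 5.69% of genes, and 2 of 10 members, Per1 and Cry2, were among them.

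**Figure D2:**
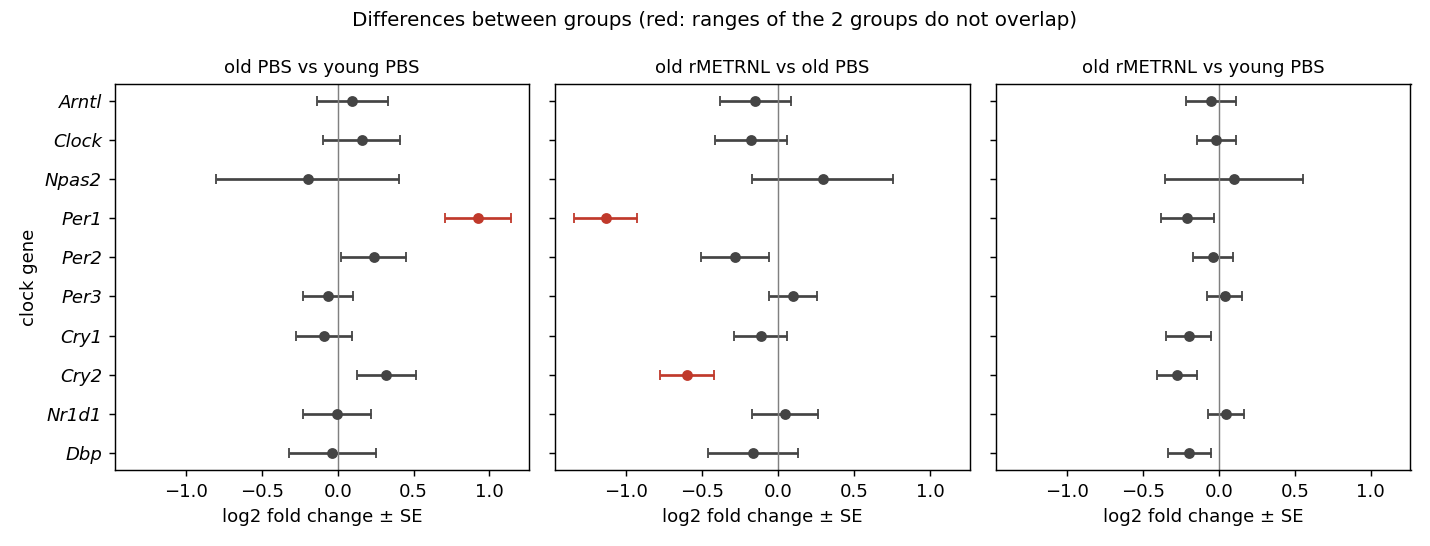
Fitted log2 fold change ± SE from edgeR (horizontal axis) for each core clock gene (vertical axis) in the 3 comparisons, with red points where the library ranges of the 2 groups do not overlap. Per1 lies at 0.92 and -1.14 in the first and second panels and Cry2 at -0.60 in the second, and no point is red in the third panel.

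The direction of Per1 did not depend on 1 library. With each library left out in turn, its log2 fold change lay between 0.75 and 1.05 for old PBS against young PBS, and between -1.27 and -0.97 for old rMETRNL against old PBS. Old PBS 3, the library rich in new fibre transcripts, had the largest effect of any library on how many genes were called. Without it, edgeR called 401 genes (2.52%) between old PBS and young PBS, and Per1 had an adjusted p of 0.0695. Without it, 1560 genes (9.76%) were called between old rMETRNL and old PBS, and Per1 passed at an adjusted p of 0.0117. Without old PBS 2 or without old PBS 4, Per1 had edgeR adjusted p of 0.273 and 0.188 in that comparison. Over all refits with edgeR or DESeq2, the adjusted p of Per1 in old PBS against young PBS ran from 0.0182 to 0.764.

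Within a library, ratios of counts do not rest on scaling between libraries. The log2 ratio of Per1 to Per2 counts was 1.12, 1.03 and 0.44 in young PBS, 1.34, 1.91 and 1.49 in old PBS, and 0.61, 0.70 and 0.81 in old rMETRNL. The ratio was highest in the 3 old PBS libraries. Per1 to Per3 lay between -0.41 and 0.49 in old PBS, between -1.47 and -0.68 in young PBS and between -1.41 and -1.07 in old rMETRNL, so that it separated old PBS as well.

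Genes that glucocorticoid hormones turn on were examined beside Per1, which is itself 1 of the 8 on that list. Fkbp5, a chaperone partner that feeds back on the hormone receptor, had 18.7, 23.4 and 26.05 CPM in young PBS, 34.3, 39.0 and 50.1 CPM in old PBS, and 21.5, 21.0 and 19.9 CPM in old rMETRNL. Like Per1, all 3 old PBS libraries were above the 6 others. Its log2 fold changes were 0.85 (SE 0.20, edgeR adjusted p = 0.234, DESeq2 adjusted p = 0.0378) against young PBS and -0.98 for old rMETRNL against old PBS (SE 0.18, edgeR adjusted p = 0.0910, DESeq2 adjusted p = 0.00166). Tsc22d3, which encodes the anti-inflammatory protein GILZ, had 134.7, 136.5 and 90.3 CPM in young PBS, 151.2, 126.3 and 203.0 CPM in old PBS, and 88.5, 98.8 and 125.3 CPM in old rMETRNL. Its lowest old PBS value lay just above the highest old rMETRNL value, and the log2 fold change between these groups was -0.62 (SE 0.23, edgeR adjusted p = 0.507). Over the list, 6 of 8 genes had positive fold changes in old PBS against young PBS, with a median of 0.28, while 52.1% of all genes tested were positive with a median of 0.01. All 8 of 8 were negative in old rMETRNL against old PBS, where 49.3% of all genes were positive, with a median of -0.33 against -0.01 over all genes, and 5 of 8 did not overlap, against 5.69% of genes. None passed the edgeR threshold in either comparison, and DESeq2 called 2 of 8, Per1 and Fkbp5, in both. Sgk1, a kinase of salt balance and a classic target of the same hormones, had a log2 fold change of -0.11 (SE 0.21) in old PBS against young PBS.

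**Figure D3:**
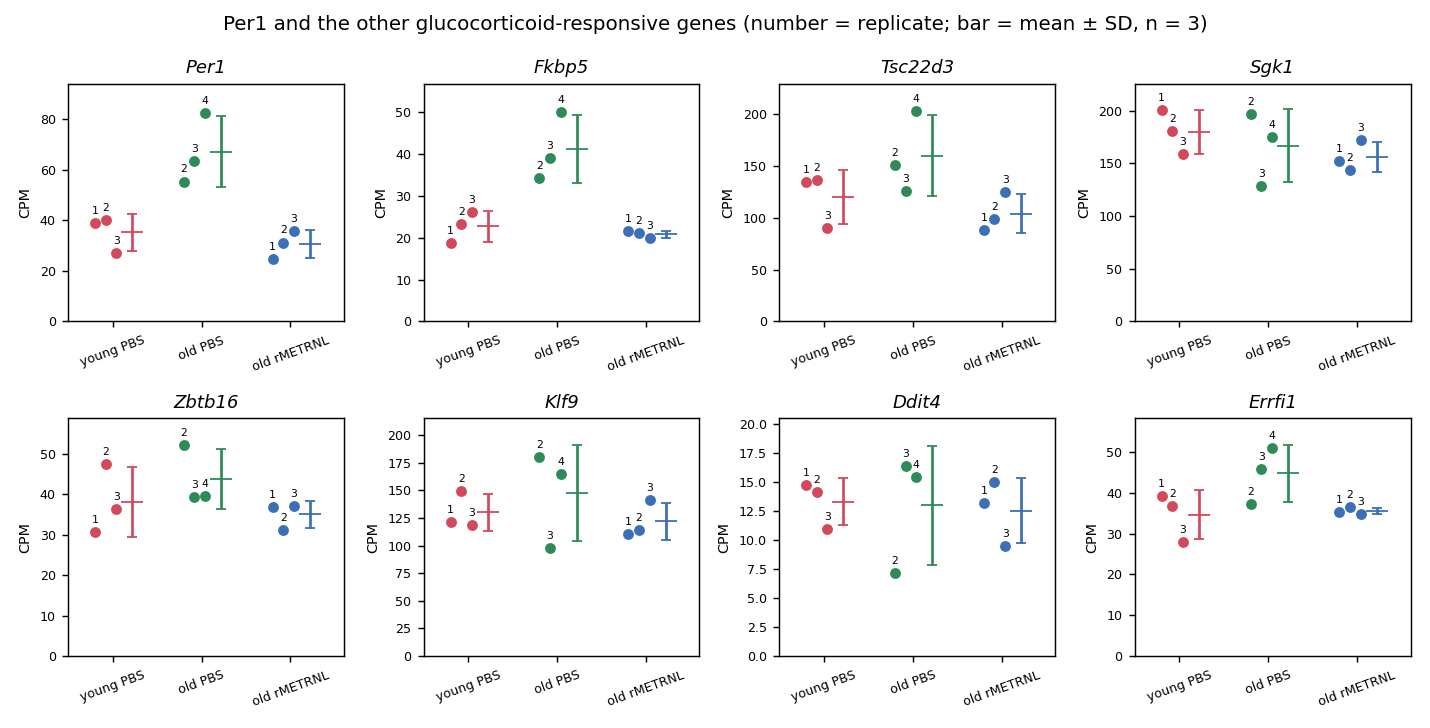
Level in CPM (vertical axes, from 0) of the 8 glucocorticoid-responsive genes in each library, with the mean ± SD of 3 libraries per group. Per1 and Fkbp5 have their 3 old PBS points above all others (55.4 to 82.7 CPM and 34.3 to 50.1 CPM), while the groups of Sgk1, Klf9 and Ddit4 overlap.

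Brain and liver marker transcripts were also mostly higher in old PBS. The brain sum of old PBS 3 lay within the young PBS range, but 192.8 CPM of it was Camk2a, high in every group. Aqp4, another gene of the sum, was at 9.48 CPM there, against 36.9 to 45.7 CPM in young PBS. The sum thus does not show whether old PBS 3 held extra brain transcripts, and single genes are given below. The 10 brain markers summed to 597.8, 285.6 and 634.7 CPM in old PBS 2 to 4, against 280.8 to 370.8 CPM in young PBS and 292.2 to 347.7 CPM in old rMETRNL, and 7 of 10 were higher in every old PBS library. The 8 liver markers summed to 84.3, 30.9 and 7.67 CPM in old PBS and to at most 1.33 CPM elsewhere, with 7 of 8 higher in every old PBS library. Over all genes, no overlap with higher old PBS values was seen in 5.26% against young PBS alone. Against old rMETRNL alone it was seen in 5.69%. The largest single part of these brain sums was Camk2a, at 192.8 to 312.5 CPM over the 9 libraries and high in every group. The myelin gene Mobp, at 0 in the other groups, had 31.6, 11.4 and 41.8 CPM in old PBS 2 to 4, and the glutamate transporter Slc1a2 had 30.8, 21.1 and 17.8 CPM against at most 0.555 CPM elsewhere. The summed macrophage markers ranged from 1322 to 1998 CPM in old PBS, 1898 to 2187 CPM in young PBS and 2010 to 2350 CPM in old rMETRNL. Markers of fibro-adipogenic progenitors, the connective tissue cells of muscle, ranged from 4133 to 7716 CPM in old PBS and from 8799 to 14454 CPM in the other groups. The largest parts of this sum were the collagens Col3a1 and Col1a1, with means of 6456 and 3012 CPM in young PBS. Only 2 of these 8 markers were lower in every old PBS library than elsewhere, and the share of all genes lower in this way was not counted. Against young PBS, 5 of 8 had negative and 3 of 8 positive fold changes in old PBS. The part of any of these in the Per1 difference was not tested.

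Per2 and Per3 gave no such pattern. Per2, which acts with Per1 as a repressor, had 17.8, 19.7 and 19.9 CPM in young PBS, 21.8, 16.8 and 29.3 CPM in old PBS, and 16.2, 19.2 and 20.5 CPM in old rMETRNL. Old PBS 4 was the highest and the groups overlapped, with log2 fold changes of 0.24 (SE 0.21) against young PBS and -0.28 (SE 0.22) for old rMETRNL against old PBS. Per3 had 62.4, 68.7 and 74.5 CPM in young PBS, 73.8, 64.3 and 59.0 CPM in old PBS, and 65.8, 69.8 and 75.4 CPM in old rMETRNL. It was the steadiest member, with an SD of 0.12 on the log2 CPM scale over the 9 libraries. Only 15.5% of genes at the same level (within 0.5 log2 CPM) had a lower SD. The SD of Per1 was 0.58, above that of 97.2% of the genes at its level, but within groups it was 0.30, above 78.1%.

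Cry2 followed Per1 in the comparison within old mice, at a smaller size. Cry2, a repressor that binds the Per proteins, had 45.0, 52.3 and 37.9 CPM in young PBS, 60.0, 44.7 and 64.5 CPM in old PBS, and 34.7, 36.4 and 40.5 CPM in old rMETRNL. Old PBS lay above old rMETRNL in every library and overlapped young PBS. The log2 fold change of old rMETRNL against old PBS was -0.60 (SE 0.18, edgeR adjusted p = 0.373, DESeq2 adjusted p = 0.185), and that of old PBS against young PBS 0.32 (SE 0.19, adjusted p = 0.986). Without old PBS 3, the first was -0.74 and passed with an edgeR adjusted p of 0.0172, in a refit that called 9.76% of all genes. It was the only refit of Cry2 that passed, and over all refits this fold change ran from -0.74 to -0.44. On the opposite strand, an annotated transcript shares 4.67% of the exon bases of Cry2, and the strand setting of the counting was not given. Cry1, the stronger repressor, had 22.8, 16.6 and 18.5 CPM in young PBS, 18.6, 15.7 and 20.2 CPM in old PBS, and 16.3, 15.4 and 18.6 CPM in old rMETRNL. Its groups overlapped, with log2 fold changes of -0.09 (SE 0.19) and -0.11 (SE 0.17). The log2 ratio of Cry2 to Cry1 counts was 1.51 to 1.68 in old PBS, 1.09 to 1.23 in old rMETRNL and 0.98 to 1.65 in young PBS.

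Nr1d1 and Dbp differed little in group mean beside the spread of their libraries. Nr1d1 had 70.6, 77.7 and 62.9 CPM in young PBS, 82.0, 48.5 and 80.2 CPM in old PBS, and 65.9, 75.4 and 76.5 CPM in old rMETRNL. Old PBS held the highest and the lowest value, and the log2 fold change against young PBS was -0.01 (SE 0.22). Dbp had 94.0, 99.4 and 81.5 CPM in young PBS, 92.8, 52.2 and 124.0 CPM in old PBS, and 67.1, 77.2 and 96.0 CPM in old rMETRNL. Its SD of 36.0 CPM within old PBS compares with 9.19 in young PBS and 14.6 in old rMETRNL. The log2 fold change of Dbp was -0.04 (SE 0.29) against young PBS and -0.17 (SE 0.30) for old rMETRNL against old PBS. For the 8 members other than Per1 and Cry2, edgeR adjusted p lay between 0.994 and 0.999 in the first comparison and between 0.768 and 0.971 in the second. The exons of Dbp share 18% of their bases with Sphk2 on the opposite strand, and those of Nr1d1 share 8.55% with Thra, so that part of either value could be reads of the neighbour if strand was not used.

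Ratios of counts inside each library, with 1 count added to each gene, were taken as a rough mark of clock phase. No phase was assigned from them. Dbp was counted more often than Arntl in all 9 libraries. The log2 ratio of Dbp to Arntl was 3.38, 3.57 and 3.02 in young PBS 1 to 3, 3.15, 2.16 and 4.13 in old PBS 2 to 4, and 2.95, 2.97 and 3.59 in old rMETRNL 1 to 3. As a ratio of counts it went from 4.48 in old PBS 3 to 17.5 in old PBS 4, a spread of 3.89-fold. Both ends of the range were old PBS libraries. In the 6 libraries outside old PBS the ratio covered only 0.64 on the log2 scale.

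Nr1d1 and Per3 gave the same lowest library. The ratios share the Arntl count, which in CPM was highest in old PBS 3, so they are not independent of each other. Per3 itself was lowest in old PBS 4, at 59.0 CPM. The log2 ratio of Nr1d1 to Arntl was 2.97, 3.21 and 2.65 in young PBS, 2.97, 2.06 and 3.50 in old PBS, and 2.93, 2.94 and 3.27 in old rMETRNL. Old PBS 4 was again the highest and old PBS 3 the lowest. Per3 to Arntl ran from 2.46 in old PBS 3 to 3.25 in old rMETRNL 3, with old PBS 4 next at 3.05. With Clock in place of Arntl, the ratio of Dbp was again lowest in old PBS 3, at -0.04, and highest in old PBS 4, at 1.99. With Npas2 in its place it was 4.44 in old PBS 3 and 7.25 in old PBS 4, also the lowest and the highest. Per3 to Clock was lowest in old PBS 3, at 0.26, and highest in old PBS 4, at 0.92. Per3 to Npas2 had other ends, with 4.61 in young PBS 3 and 6.37 in young PBS 2.

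The group means of these ratios were close beside their spread. Dbp to Arntl was 3.33 ± 0.28 in young PBS, 3.15 ± 0.98 in old PBS and 3.17 ± 0.36 in old rMETRNL (SD, n = 3), and Nr1d1 to Arntl was 2.94 ± 0.28, 2.84 ± 0.73 and 3.04 ± 0.19. No clock hour was assigned, since no time series of this muscle was at hand. Old PBS 3 and old PBS 4, the ends of the ratio of Dbp to Arntl, were also the ends of the summed new fibre markers, at 4648 and 576.7 CPM. They were the ends of the summed mature fibre markers as well, with 97551 CPM in old PBS 3 and 169990 CPM in old PBS 4. The part of these differences in fibre transcripts in the ratios was not tested. The Per1 levels of these libraries, 63.5 and 82.7 CPM, were both above the other groups.

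**Figure D4:**
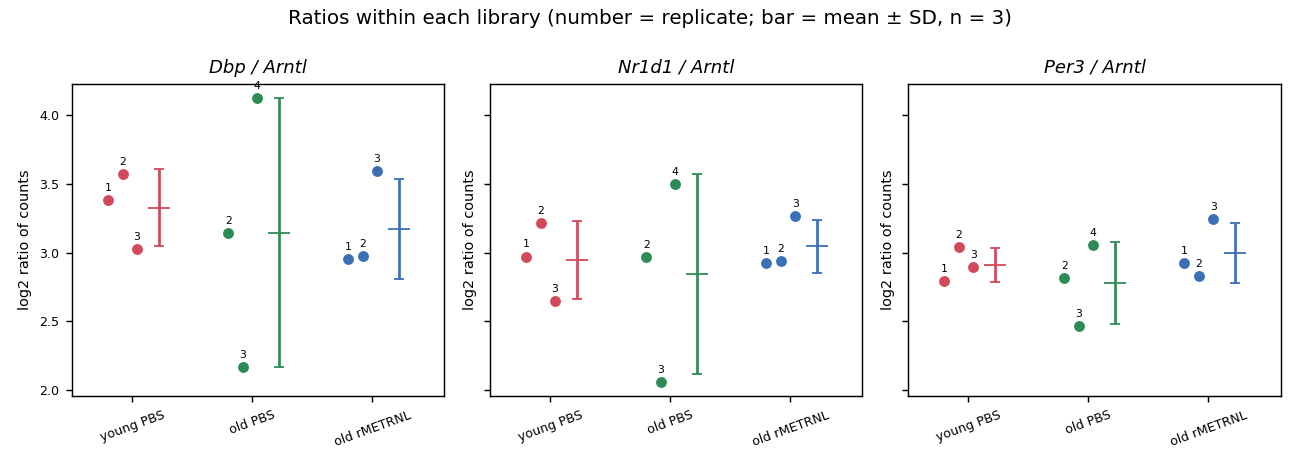
Log2 ratio of Dbp, Nr1d1 and Per3 counts to Arntl counts within each library (vertical axis, not starting at 0), with 1 numbered point per library and the mean ± SD of 3 libraries per group. Old PBS 3 is the lowest library in all panels (2.16, 2.06 and 2.46), and old PBS 4 is the highest for Dbp and Nr1d1 (4.13 and 3.50).

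Of the 18 accessory clock genes, 17 were tested between old PBS and young PBS and none was called by edgeR or DESeq2, with 0 at an unadjusted p under 0.05, which 5.91% of all genes had. Between old rMETRNL and old PBS none was called either, with 3 of 17 at an unadjusted p under 0.05, all lower in old rMETRNL, as 4.57% of all genes were. Ciart, a repressor of the Arntl and Clock pair, had 9.08, 3.41 and 20.2 CPM in old PBS against 3.61 to 6.29 CPM in young PBS and 3.32 to 5.38 CPM in old rMETRNL. Old PBS 2 and 4 were above the other libraries and old PBS 3 was not. Its log2 fold change was -1.37 (SE 0.54, edgeR adjusted p = 0.562) for old rMETRNL against old PBS, and that of Usp2, a deubiquitinase, -0.67 (SE 0.25, adjusted p = 0.537).

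Nr1d2, the partner of Nr1d1 in repressing Arntl, was at 136.4 CPM in old PBS 3 and 154.2 to 241.4 CPM in the others, with log2 fold changes of 0.12 (SE 0.24) and -0.21 (SE 0.24) in these comparisons. The D-box activators Tef and Hlf had log2 fold changes in old PBS against young PBS of -0.06 (SE 0.19) and 0.56 (SE 0.42). Nfil3, which represses through the same box, was at 0.40 (SE 0.19, edgeR adjusted p = 0.874), and its lowest old PBS value of 13.5 CPM was just above the highest young PBS value of 13.3 CPM. The repressors Bhlhe40 and Bhlhe41 had log2 fold changes of 0.28 (SE 0.27) and -0.15 (SE 0.24). The median log2 fold change of the 10 members was 0.05 in old PBS against young PBS and -0.16 in old rMETRNL against old PBS, and over the accessory genes 0.12 and -0.22.

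Between old rMETRNL and young PBS, none of the 10 members was called and none had groups that did not overlap, which 6.9% of the 15396 genes tested had. In this comparison edgeR called 0 genes (0%) with 371 (2.41%) at an unadjusted p under 0.05, and DESeq2 called 0. The log2 fold changes of the members lay between -0.28 for Cry2 (SE 0.13) and 0.10 for Npas2 (SE 0.45).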

How the data were processed

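RNA of 9 libraries was analysed, 3 in each of young PBS, old PBS and old rMETRNL. The authors deposited raw counts per Ensembl gene, without normalization and with libraries kept apart. Per the submitters' processing notes, reads were mapped with STAR and counted with featureCounts on mm9, with no versions or strand setting given. Symbols, coordinates and exon lengths were taken from GENCODE M21 on GRCm38, which matched 54409 of the 54532 identifiers. Counts were scaled by TMM, filtered with filterByExpr and fitted with edgeR 4.0.16 (glmQLFit and glmQLFTest, R 4.3.3) on the 6 libraries of each comparison, with Benjamini-Hochberg adjustment over all genes tested at 0.05. DESeq2 1.42.0 was an alternative. Log2 CPM used a prior count of 2. Both tests were checked on simulated data. Deviations of libraries with the same number correlated between -0.32 and 0.41, and no label ties the numbers to animals or days, so the libraries were not paired. Replicates differed by more than sampling noise. The members, gene lists and markers were chosen with earlier results of these data known. All 10 members were described, accessory genes were named when called or set down as Nr1d2, Tef, Hlf, Nfil3, Ciart, Bhlhe40 and Bhlhe41, and the genes most like Arntl and Dbp were the 5 with the highest and the 5 with the lowest Pearson r. Usp2, Fkbp5, Tsc22d3, Sgk1, Jun, Fosb and Atf3 were named after their values were seen. The values of 1 accessory gene are not reported here.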

Additional observations from a re-analysis of the deposited data

How the results depend on the processing

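Over 360 refits of the 30 fold changes of members, 319 kept direction and side of the threshold, 6 passed it (Per1 in 5 and Cry2 in 1) and 35 changed sign, all of them values that were never called. The sign changes of Nr1d1 in old PBS against young PBS were to 0.0062 with DESeq2 size factors and 0.00022 with DESeq2. With the replicate block, Npas2 and Per2 changed to 0.067 and -0.049 in old PBS against young PBS, and Per2 and Dbp to 0.044 and 0.30 in old rMETRNL against old PBS. The libraries share only a number. The deviations of same-numbered libraries correlated at 0.11 and 0.41 between young PBS and old PBS, where 2 numbers are shared, and between -0.32 and 0.02 for the other pairs. With the block, Per1 had adjusted p of 0.440 and 0.643. With each library left out, fold changes in old PBS against young PBS ran from -0.062 to 0.28 for Arntl, -0.036 to 0.40 for Clock, -0.78 to 0.51 for Npas2, -0.15 to 0.0100 for Per3, -0.19 to 0.045 for Cry1, -0.13 to 0.20 for Nr1d1 and -0.34 to 0.24 for Dbp. In old rMETRNL against old PBS they ran from -0.35 to 0.0051 for Arntl, -0.43 to 0.018 for Clock, -0.025 to 0.87 for Npas2, -0.16 to 0.17 for Nr1d1 and -0.44 to 0.13 for Dbp. In old rMETRNL against young PBS they ran from -0.14 to 0.021 for Arntl, -0.14 to 0.049 for Clock, -0.24 to 0.81 for Npas2, -0.12 to 0.051 for Per2, -0.030 to 0.10 for Per3 and -0.030 to 0.12 for Nr1d1.

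Counts of called genes changed most. For old PBS against young PBS, 10 became 354 without the filter, 3 with at least 10 counts in every library, 265 with DESeq2, 63 with all libraries in 1 fit, and 2 to 401 with each library left out. For old rMETRNL against old PBS, 17 became 740, 1, 357 and 71 under the same settings, 65 with the replicate block and 3 to 1560 with each library left out. For old rMETRNL against young PBS, 0 became 132 without the filter and 0 to 1 with each library left out. The cause was not tested. The group means of the members in CPM moved by less than 1 SD with DESeq2 size factors or total counts. Npas2 is limited by its 12 to 54 counts and by its spread between libraries.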

Other observations

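Over the 9 libraries and 16124 genes, the genes whose log2 CPM most resembled that of Arntl were Cacna1h, a calcium channel subunit (Pearson r = 0.95), Plekhh1, Slc38a1, Ddb1 and Sh3rf1, down to 0.92. The least alike were Selenos, a selenoprotein of the endoplasmic reticulum (r = -0.99), Pole3, Kcnq1, Gm10643 and Imp3, up to -0.95. For Dbp the most alike were Tatdn1 (r = 0.99), Txnrd1, Lbx1, Lyz1 and Stradb, down to 0.98, and the least alike Cherp (r = -0.96), Ikbkb, Ugcg, Ablim3 and Firre, up to -0.94. The libraries share a scaling and differ in new fibre transcripts, and with 9 points such values are descriptions only.

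Among the members, Arntl went with Clock (r = 0.78) and Npas2 (r = 0.69), and against Dbp (r = -0.76) and Nr1d1 (r = -0.62). In the 6 libraries without old PBS these values were 0.20, 0.75, -0.44 and -0.52. Dbp went with Nr1d1 (r = 0.86) and Per2 (r = 0.80), at 0.60 and 0.65 without old PBS. Per3 neither followed Dbp nor opposed Arntl, with r of -0.07 to Dbp and 0.31 to Arntl. Over the 9 libraries, 97.7% and 93.7% of genes had a lower r with Arntl than Clock and Npas2 had. For Dbp and Nr1d1 with Arntl, 4.12% and 12.03% of genes had a lower r. For Nr1d1 and Per2 with Dbp, the figures were 96.3% and 92.7%.

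Of the 10 immediate early genes, transcripts that rise within minutes of a stimulus, 8 had positive fold changes in old PBS against young PBS and 8 had negative ones in old rMETRNL against old PBS, with medians of 0.34 and -0.29 on the log2 scale. Of all genes tested, 52.1% and 49.3% were positive in these comparisons. None of the 10 was called by edgeR or DESeq2 in either comparison. Jun did not overlap between groups in either of them, with log2 fold changes of 0.53 (SE 0.18, edgeR adjusted p = 0.635) and -0.43 (SE 0.18, adjusted p = 0.594). No overlap in these directions was seen in 1 and 2 of the 10, and in 5.26% and 5.69% of all genes. Fosb went the other way, at -0.68 (SE 0.45) and 1.20 (SE 0.48), as did Atf3, at -0.48 (SE 0.32) and 0.16 (SE 0.32).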
